A study of Mus musculus with 12 samples.

Results

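SMC#1 and SMC#2 are the 2 lines of SCLC metastasizing cells (SMC) in a study of small-cell lung cancer (SCLC) that compared 4 mouse tumour lines by RNA sequencing. To ask how the metastasizing lines differ from each other, the 6 libraries labelled SMC#1 (replicates 1 to 3) and SMC#2 (replicates 1 to 3) were taken from the 12 libraries of the series. Of 24458 gene rows, the 11892 that reached 1 FPKM in at least 3 of these 6 libraries were compared. FPKM counts the fragments on a transcript per kilobase of its length, scaled to the library. The other 6 libraries, of the attached lines Non-SMC#1 and Non-SMC#2, serve as a reference for runs of neighbouring genes and enter 1 alternative fit of all 12 libraries.

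Both lines belong to the RP model. They came from lung tumours of mice with Rb1 L/L and Trp53 L/L alleles on a mixed background of C57Bl/6, Balb-c and S129, after an adenovirus (Ad-CMV-Cre) brought Cre into the airways. The CMV promoter of that virus is active in many cell types, so the cell that gave rise to each tumour is not fixed by the model. SMC were sorted as NCAM hi and CD44 lo/-, grew as floating spheres, and were not treated before RNA was taken. The mice were several weeks old when the virus was given. Their age when the tumours were taken, and whether the 2 lines shared a mouse or were clones, are not given in the sources used here. No source states that the 3 libraries per line were grown as separate cultures, so p-values here measure library-to-library spread, which may be technical.

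SCLC is a tumour of neuroendocrine character. Its cells make granins, neuropeptides and synaptic proteins, and most cases depend on lineage factors of the basic helix-loop-helix (bHLH) family. NEUROD1, a bHLH factor, names a neuroendocrine subtype in patients, whereas POU2F3 and YAP1 mark tumours with little neuroendocrine character. bHLH factors bind short DNA words called E-boxes (CANNTG), and MYC family genes, of which MYCL is often amplified in SCLC, belong to a related group of factors that pair with MAX.

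Promoter sequences are shown for 4 genes on which the comparison turned, the subtype factor Neurod1, the related factor Neurog2, the cell cycle factor E2f2 and the Notch ligand Dll3, all higher in SMC#2. Each is the 250 bases before the annotated start (RefSeq, GRCm38.p6), 5′ to 3′ on the strand of the gene. E-box words of the forms CAGATG or CATCTG (each the reverse complement of the other) and CAGCTG (its own reverse complement) were searched on both strands and are in capitals. No match overlapped another.
Neurod1 (chr2:79456637-79456886, minus strand): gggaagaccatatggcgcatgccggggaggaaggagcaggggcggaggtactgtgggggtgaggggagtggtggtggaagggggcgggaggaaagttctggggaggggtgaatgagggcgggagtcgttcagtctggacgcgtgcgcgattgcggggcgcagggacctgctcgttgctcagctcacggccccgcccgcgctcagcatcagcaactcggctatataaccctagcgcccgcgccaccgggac
Neurog2 (chr3:127632886-127633135, plus strand): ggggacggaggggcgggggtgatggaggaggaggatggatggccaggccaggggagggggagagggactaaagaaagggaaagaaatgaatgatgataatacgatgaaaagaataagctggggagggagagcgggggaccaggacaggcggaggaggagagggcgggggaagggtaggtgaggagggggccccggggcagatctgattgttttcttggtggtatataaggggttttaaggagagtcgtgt
E2f2 (chr4:136172024-136172273, plus strand, 1 of its 2 promoters in the table): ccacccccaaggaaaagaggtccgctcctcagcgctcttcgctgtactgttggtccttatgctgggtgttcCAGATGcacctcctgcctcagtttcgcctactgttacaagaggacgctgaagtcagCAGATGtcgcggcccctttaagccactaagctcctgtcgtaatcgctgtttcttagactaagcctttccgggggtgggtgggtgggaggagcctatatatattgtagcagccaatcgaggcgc
Dll3 (chr7:28301786-28302035, minus strand): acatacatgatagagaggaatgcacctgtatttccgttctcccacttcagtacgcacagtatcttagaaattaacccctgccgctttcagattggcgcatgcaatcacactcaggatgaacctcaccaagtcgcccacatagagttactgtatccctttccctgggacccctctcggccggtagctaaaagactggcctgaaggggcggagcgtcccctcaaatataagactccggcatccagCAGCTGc

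The E2f2 window held CAGATG at -179 and -123 and the Dll3 window held CAGCTG at -7, counted from the start, and the Neurod1 and Neurog2 windows held neither form. CAGATG or CATCTG stood in 14.4% of all 32851 promoters of this length and in 9.76% of the 11468 promoters that matched a tested gene. Promoters of genes at least 2-fold higher in SMC#1 had it in 12.2% of 843, and those of genes at least 2-fold lower in 12.6% of 564. CAGCTG stood in 4271 of all 32851 promoters, 12.1% of those of tested genes, 18.1% of the higher group and 15.8% of the lower group. The 11468 promoters belonged to 8898 genes, the 843 to 620 genes and the 564 to 420 genes. Some genes thus count more than once, and others had no promoter listed. These shares describe letters in a fixed window and not binding.

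Libraries of a line were close to each other. Spearman correlations across the tested genes were 0.993 to 0.996 within a line and 0.897 to 0.908 between the lines, with genes that are not independent replicates. Relative depth, read from low values, was 0.940 to 1.43 times that of SMC#1 replicate 1, and each library had 11354 to 11536 rows at or over 1 FPKM. These depths are rough, since each is the most frequent of 879 to 1305 ratios and was shared by only 27 to 72 of them. Of 10 markers of neuroendocrine cells all were tested, 5 were higher in SMC#1, 2 were lower and 3 did not pass, and each was at 22.6 FPKM (Chgb, a granin) or more in every library. Markers of lymphocytes and erythroid cells did not reach the filter, those of endothelium (1 of 8 tested) summed to 11.9 to 13.4 FPKM in SMC#1 and 14.6 to 18.1 FPKM in SMC#2, and those of macrophages (1 of 9 tested) to 0.892 to 0.979 FPKM in SMC#1 and 2.14 to 2.39 FPKM in SMC#2. The genes deleted in the model were Rb1, at 3.64, 4.16 and 3.78 FPKM in SMC#1 and 2.90, 3.24 and 3.02 FPKM in SMC#2, and Trp53, at 7.68, 7.14 and 7.14 FPKM in SMC#1 and 7.79, 6.95 and 7.51 FPKM in SMC#2. A value for the whole gene includes exons outside the deleted ones, so it does not check the deletion.

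Of the 11892 genes, 5003 were higher in SMC#1 and 2830 were lower at an adjusted p under 0.05 (limma on log2(FPKM + 1), two-sided), which is 42.1% and 23.8% of those tested. With a difference of at least 2-fold in addition, 902 genes were higher (7.58%) and 577 were lower (4.85%), and in all 1479 of them the libraries of the lines did not overlap. The remaining 4059 genes did not pass the test. Lack of overlap was common. Of all 11892 tested rows, 5298 were higher and 3047 were lower in SMC#1 with no overlap between the lines. FPKM is a share of each library, and the median gene was 0.11 higher in SMC#1 on the log2 scale, a shift that became -0.0046 after median-ratio scaling and -0.020 after quantile normalization. The split of calls moved with it, to 3936 higher and 3908 lower after median-ratio scaling and to 3869 and 4106 after quantile normalization. Differences below are SMC#1 minus SMC#2 on the deposited scale, to be read relative to 0.11, and means are given ± SD (n = 3 libraries). Counts of called list members below are likewise to be read against 42.1% higher and 23.8% lower over all tested genes. Log2 differences of genes with low values are understated by the added 1 FPKM.

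**Figure D1:**
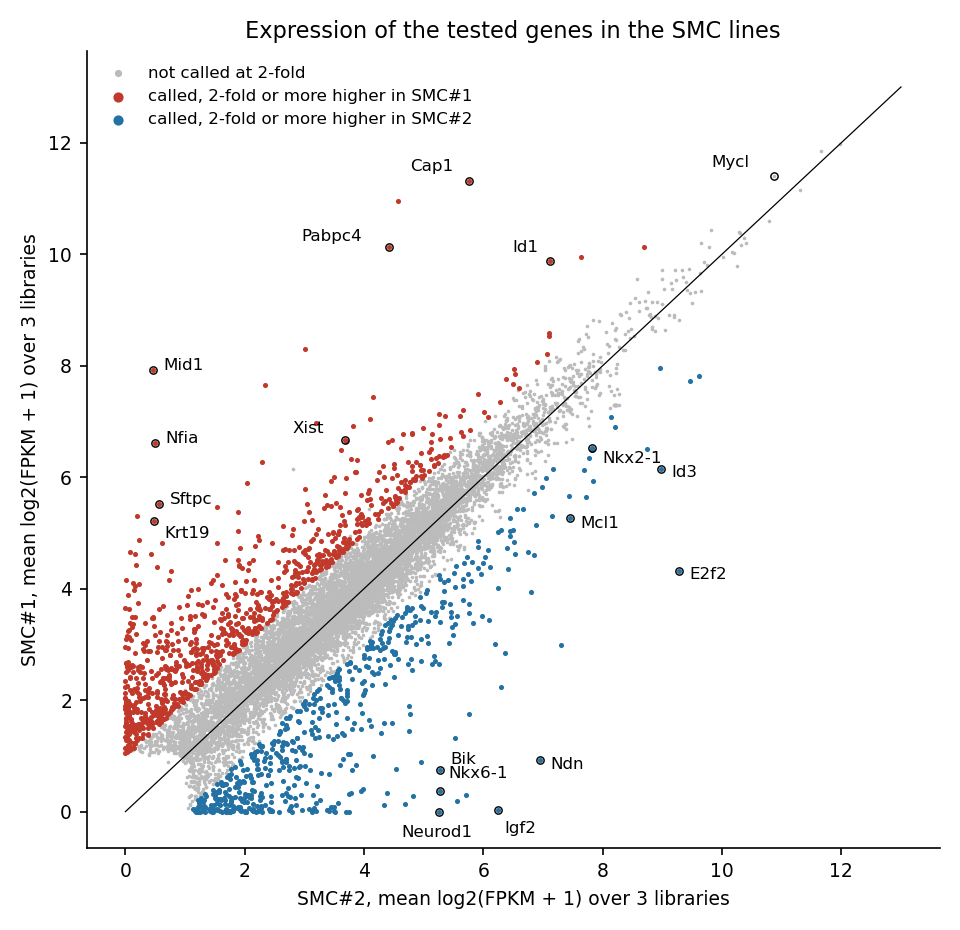
Mean log2(FPKM + 1) over 3 libraries of each of the 11892 tested genes, with SMC#2 on the x axis, SMC#1 on the y axis, 1 point per gene and a line at equal values. The 902 genes higher in SMC#1 past both thresholds (red) and the 577 higher in SMC#2 (blue) reach far from the line at Mid1, Cap1, E2f2 and Igf2, while Mycl lies high in both lines.

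Most of the genes with the largest differences were low or close to 0 in 1 of the lines. Mid1, a ubiquitin ligase bound to microtubules (chrX:166123131-166428729, mm9), was at 243, 243 and 243 FPKM in the 3 SMC#1 libraries and 0.336, 0.439 and 0.354 FPKM in the SMC#2 libraries (log2 difference 7.47, SE 0.058, adjusted p = 2.33e-14). Nfia, a transcription factor of the nuclear factor I family, was at 92.3, 101 and 97.6 FPKM in SMC#1 and 0.426, 0.463 and 0.355 FPKM in SMC#2 (log2 difference 6.11, SE 0.063, adjusted p = 2.43e-13). In neither gene did any SMC#2 library reach 1 FPKM. Its relative Nfib did not pass the test, at 54.4 ± 1.42 and 54.4 ± 1.80 FPKM (log2 difference -0.00083, SE 0.065, adjusted p = 0.992), and was called lower in SMC#1 after quantile normalization.

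Sftpc, the surfactant protein of alveolar type 2 cells, was at 42.8, 41.8 and 51.3 FPKM in SMC#1 and 0.526, 0.493 and 0.428 FPKM in SMC#2 (log2 difference 4.96, SE 0.082, adjusted p = 4.37e-12). Krt19, a keratin of simple epithelia, was at 31.4, 34.0 and 43.4 FPKM in SMC#1 and 0.771, 0.368 and 0.135 FPKM in SMC#2 (log2 difference 4.72, SE 0.18, adjusted p = 1.21e-07). Both genes were under 1 FPKM in each SMC#2 library and at 31.4 FPKM or more in each SMC#1 library. Ntsr2, a neurotensin receptor, averaged 38.5 against 0.156 FPKM, log2 difference 5.10, Dgkk, a diacylglycerol kinase on chromosome X, 24.3 against 0.0530 FPKM, log2 difference 4.58, and Nbl1, a secreted antagonist of BMP ligands, 201 against 4.06 FPKM, log2 difference 5.32. Gm5088, which has no role in the annotation used, averaged 1978 against 22.8 FPKM, log2 difference 6.38.

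In the other direction, Igf2, the imprinted insulin-like growth factor, was at 0.0189, 0.0302 and 0.0158 FPKM in SMC#1 and 74.6, 82.0 and 67.8 FPKM in SMC#2 (log2 difference -6.21, SE 0.075, adjusted p = 5.05e-13). Ndn, an imprinted gene of the MAGE family that encodes necdin, was at 0.971, 0.676 and 1.04 FPKM in SMC#1 and 138, 107 and 123 FPKM in SMC#2 (log2 difference -6.03, SE 0.10, adjusted p = 1.17e-11). Nkx6-1, a homeobox factor of motor neurons and pancreatic beta cells, was at 0.284, 0.304 and 0.294 FPKM in SMC#1 and 39.5, 38.4 and 35.8 FPKM in SMC#2 (log2 difference -4.91, SE 0.065, adjusted p = 1.2e-12). Lack of overlap was a condition for naming these genes, and SMC#2 was the line that expressed them. Tmprss2, a transmembrane serine protease of epithelia, averaged 0.0987 against 24.6 FPKM, log2 difference -4.54, Bik, a BH3-only member of the BCL2 family that promotes cell death, 0.673 against 37.6 FPKM, log2 difference -4.53, and Col8a1, a chain of type VIII collagen, 1.49 against 45.1 FPKM, log2 difference -4.21. Gdpd3, a phosphodiesterase of lipid metabolism, averaged 0.236 against 51.4 FPKM, log2 difference -5.41, and Gm19990, with no role in the annotation used, 0.223 against 27.3 FPKM, log2 difference -4.53.

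Among the subtype factors described here, Neurod1 and Neurog2 had the largest differences. Neurod1 (chr2:79292798-79296793, mm9) was listed at 0 FPKM in each SMC#1 library and was at 37.5, 36.2 and 37.7 FPKM in SMC#2 (adjusted p = 5.05e-13). Neurog2, a proneural factor that acts upstream of NEUROD1 in the developing nervous system, was at 0.0169, 0 and 0 FPKM in SMC#1 and 9.87, 8.53 and 10.6 FPKM in SMC#2 (adjusted p = 7.31e-11). For either gene at most 1 SMC#1 library had a value above 0, and their printed promoter windows held none of the E-box forms searched. In bulk RNA, fewer cells with a transcript and less transcript per cell cannot be told apart.

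Neurog3, a proneural factor of gut and pancreatic endocrine cells, was slightly higher in SMC#2, at 18.1 ± 2.06 against 23.8 ± 2.77 FPKM (log2 difference -0.38, adjusted p = 0.00445). Yap1, the Hippo pathway cofactor, was at 0.142, 0.294 and 0.218 FPKM in SMC#1 and 1.10, 1.44 and 1.197 FPKM in SMC#2 (log2 difference -0.88, SE 0.084, adjusted p = 3.44e-06). The higher line was near the filter of 1 FPKM.

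Further subtype factors stayed below the filter in both lines. Pou2f3, the factor of tuft cell-like tumours, was at 0.145, 0.248 and 0.207 FPKM in SMC#1 and was listed at 0 in the SMC#2 libraries. Atoh1, a bHLH factor of Merkel and hair cells, was at 0.0363, 0 and 0 FPKM in SMC#1 and 0.286, 0.355 and 0.492 FPKM in SMC#2. Neurod2 and Neurod4 had no library above 0.326 FPKM. Nor did Wwtr1, which encodes the Hippo cofactor TAZ and is not counted among the subtype factors.

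**Figure D2:**
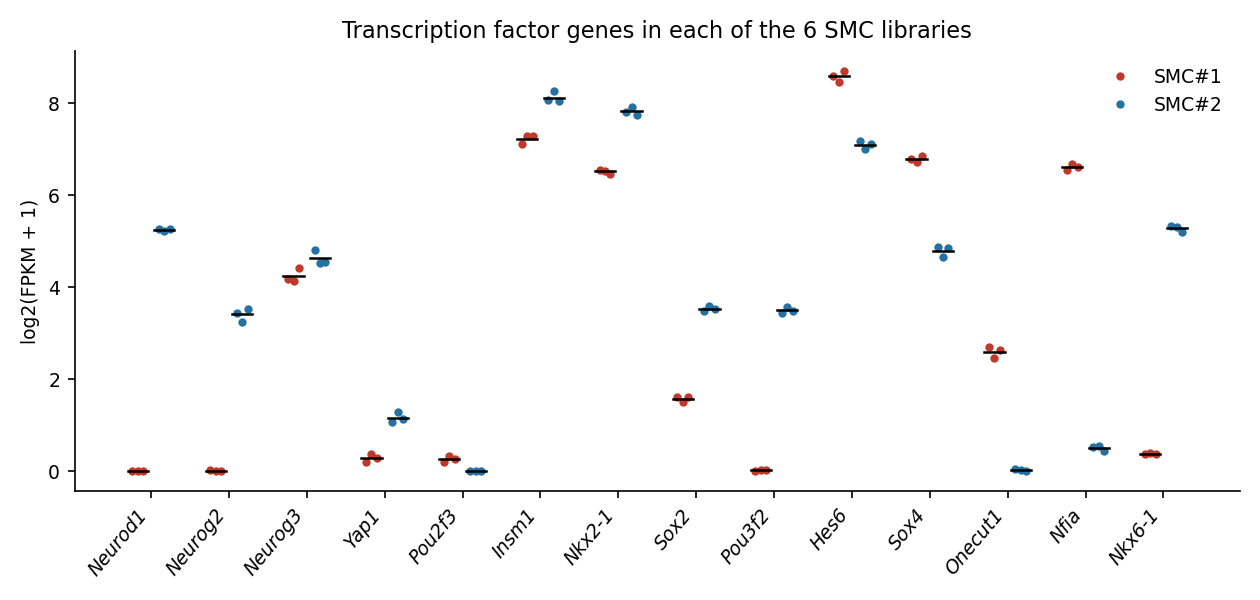
Log2(FPKM + 1) of 14 transcription factor genes, 1 point per library (3 in red for SMC#1, 3 in blue for SMC#2) and a bar at the mean of each line. Neurod1 and Neurog2 lie at or near 0 in SMC#1 and between 8.53 and 37.7 FPKM in SMC#2, while Nfia shows the opposite order of the lines.

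Members of the MYC family differed in level, with Mycl the main member in both lines. Mycl was the most abundant, at 2811, 2534 and 2817 FPKM in SMC#1 and 1925, 1872 and 1824 FPKM in SMC#2 (log2 difference 0.54, SE 0.13, adjusted p = 0.00328). Mycn was at 3.52, 3.56 and 3.21 FPKM in SMC#1 and 0.992, 0.893 and 0.749 FPKM in SMC#2 (log2 difference 1.24, SE 0.078, adjusted p = 1.13e-07). Myc went the other way, at 0.509, 0.823 and 0.751 FPKM in SMC#1 and 3.79, 4.19 and 3.11 FPKM in SMC#2 (log2 difference -1.47, SE 0.10, adjusted p = 2.78e-07). The lines overlapped in none of the 3 genes, and Myc and Mycn were at most 4.19 FPKM in any library. Of 12 MYC family and MAX partner genes, 6 were higher in SMC#1 and 4 were lower (5 and 4 after median-ratio scaling), with a median of 0.052 against 0.11 over all genes. Mxd4, which pairs with MAX and opposes MYC, averaged 34.2 against 19.5 FPKM, log2 difference 0.78, and Mga, another MAX partner, 7.76 against 14.1 FPKM, log2 difference -0.79. Mlx, Mxi1 and Mnt had differences of 0.31, -0.42 and -0.18, the last of which did not pass in a fit of all 12 libraries (adjusted p = 0.340) or without replicate 1 or 2 of either line (adjusted p = 0.0790 to 0.108).

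Mycl lies among the genes that were most different between the lines. In mm9 the order on chromosome 4 is Ppt1 (chr4:122513470), Cap1, Mycl (chr4:122673342) and Pabpc4 (chr4:122960154). Cap1, a regulator of actin turnover, was at 2589, 2362 and 2650.3 FPKM in SMC#1 and 55.3, 52.4 and 51.1 FPKM in SMC#2 (log2 difference 5.55, SE 0.10, adjusted p = 6.11e-12). Pabpc4, a poly(A)-binding protein, was at 1195, 1086 and 1067 FPKM in SMC#1 and 21.2, 20.5 and 19.6 FPKM in SMC#2 (log2 difference 5.70, SE 0.084, adjusted p = 2.11e-12), and Ppt1, a lysosomal thioesterase, averaged 313 against 7.08 FPKM, log2 difference 5.28. The 3 neighbours were at most 55.3 FPKM in SMC#2, the line in which Mycl itself was at 1824 FPKM or more.

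Lineage factors of neuroendocrine cells were called in both directions, while differences of at least 2-fold were mostly higher in SMC#1. Of 24 tested, 12 were higher in SMC#1 and 9 were lower (11 and 9 after median-ratio scaling), with a median of 0.21. At 2-fold or more, 9 of the 24 were higher and 2 were lower, against 7.58% and 4.85% of all tested genes. Nkx2-1, the homeobox factor of lung and thyroid, was at 93.2, 91.6 and 87.6 FPKM in SMC#1 and 224, 242 and 213 FPKM in SMC#2 (log2 difference -1.31, SE 0.083, adjusted p = 1.18e-07). Insm1, a zinc finger factor of neuroendocrine differentiation, was at 138, 156 and 155 FPKM in SMC#1 and 270.4, 306 and 263 FPKM in SMC#2 (log2 difference -0.90, SE 0.10, adjusted p = 9.21e-06). Pou3f2, a neural POU factor, was at 0, 0.0113 and 0.0179 FPKM in SMC#1 and 9.87, 10.9 and 10.3 FPKM in SMC#2 (adjusted p = 1.8e-11). These 3 factors were higher in each SMC#2 library than in any SMC#1 library. Nkx2-1 is counted with the genes of lung and foregut and not in this list.

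SOX factors, which set progenitor and neural states, went both ways. Sox2 was at 2.07, 1.82 and 2.04 FPKM in SMC#1 and 10.2, 11.1 and 10.5 FPKM in SMC#2 (log2 difference -1.96, SE 0.069, adjusted p = 9.36e-10), and Sox11 averaged 56.7 against 81.8 FPKM, log2 difference -0.52. Sox4 was at 110.5, 105 and 114 FPKM in SMC#1 and 28.2, 24.4 and 27.8 FPKM in SMC#2 (log2 difference 1.996, SE 0.076, adjusted p = 1.82e-09). Sox1 was also higher in SMC#1, at 203 ± 9.01 against 118 ± 6.22 FPKM (log2 difference 0.78, SE 0.083, adjusted p = 9.08e-06). Onecut1, a factor of liver, pancreas and neurons, was at 5.47, 4.54 and 5.22 FPKM in SMC#1 and 0.0356, 0.0150 and 0 FPKM in SMC#2 (adjusted p = 3.69e-10). Nr0b2, a nuclear receptor that acts as a repressor, averaged 16.0 against 2.08 FPKM, log2 difference 2.45.

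Genes of lung and foregut were more often higher in SMC#2. Of 14 tested, 3 were higher in SMC#1 and 8 were lower, with a median of -0.25 against 0.11 over all genes (3 and 10 after median-ratio scaling). Those higher in SMC#1 were Sftpc (above), Etv5, an ETS factor of distal lung epithelium (1.86 against 0.531 FPKM, log2 difference 0.90), and Hopx, a homeodomain cofactor of alveolar type 1 cells, which was at 21.7, 20.1 and 23.8 FPKM in SMC#1 and 2.28, 2.55 and 1.72 FPKM in SMC#2 (log2 difference 2.85, SE 0.10, adjusted p = 1.15e-09). Of 9 markers of alveolar and airway cells 4 were tested. Sftpc and Hopx were higher in SMC#1, whereas Ager, a receptor of alveolar type 1 cells (0.809 against 2.22 FPKM, log2 difference -0.83), and Foxj1, the factor of ciliated cells (1.33 against 4.58 FPKM, log2 difference -1.26), were lower. The 9 markers summed to 64.3 to 77.2 FPKM in SMC#1 and 10.4 to 11.8 FPKM in SMC#2, most of it in SMC#1 from Sftpc and Hopx. Their part in other differences was not tested. Sox21 and Cebpa, a factor of differentiated alveolar cells among others, had differences of -1.08 and -0.37. The forkhead factors that open foregut enhancers were close in level, with Foxa1 at 75.6 ± 1.88 and 78.7 ± 3.09 FPKM (adjusted p = 0.49, lower in SMC#1 after either scaling) and Foxa2 at 101 ± 7.87 and 118 ± 4.94 FPKM (log2 difference -0.22, adjusted p = 0.0393, a call lost without any 1 library other than SMC#1 replicate 3, at adjusted p = 0.0506 to 0.134).

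Genes tied to neuroendocrine SCLC, among them a surface therapy target and a growth factor receptor, also differed. Dll3, an inhibitory Notch ligand that serves as a therapy target in SCLC, was at 1.83, 1.71 and 2.22 FPKM in SMC#1 and 17.2, 17.1 and 14.6 FPKM in SMC#2 (log2 difference -2.57, SE 0.088, adjusted p = 7.52e-10). Ret, the receptor of GDNF family ligands, was at 5.52, 5.45 and 5.60 FPKM in SMC#1 and 36.0, 36.8 and 33.6 FPKM in SMC#2 (log2 difference -2.48, SE 0.06, adjusted p = 5.87e-11). Hes6, a bHLH protein that opposes HES1, went the other way at 389, 352 and 418 FPKM in SMC#1 and 144, 127 and 138 FPKM in SMC#2 (log2 difference 1.49, SE 0.10, adjusted p = 1.51e-07). The lines did not overlap in any of the 3, as in most tested genes. Of 6 NEUROD1-linked genes, Hes6 among them, 2 were higher in SMC#1 and 3 were lower (1 and 3 after median-ratio scaling).

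In the Notch pathway, which restrains neuroendocrine fate, 8 of 19 tested genes were higher in SMC#1 and 7 were lower, and median-ratio scaling turned this to 6 and 9. As deposited that is 42.1% and 36.8%, against 42.1% and 23.8% of all tested genes. Hey1, a transcriptional effector, averaged 10.9 against 5.55 FPKM, log2 difference 0.86, and Dlk2, a non-canonical ligand, 11.5 against 5.97 FPKM, log2 difference 0.83. Hes1, the main effector, did not pass the test at 6.09, 7.23 and 6.42 FPKM in SMC#1 and 7.85, 7.198 and 6.29 FPKM in SMC#2 (adjusted p = 0.344), and was lower in SMC#1 after either scaling. Dll1, an activating ligand, and Mfng, a glycosyltransferase that modifies Notch, had differences of -0.22 and -0.44, and Maml1, a coactivator, of 0.34.

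Products of neuroendocrine cells differed by gene and not as a group. Of 14 granins and prohormone processing genes, 5 were higher in SMC#1 and 6 were lower (3 and 6 after median-ratio scaling). That is 35.7% and 42.9%, against 42.1% and 23.8% of all tested genes. Chga, the granin used as a clinical marker, was at 447, 422 and 485 FPKM in SMC#1 and 239, 214 and 227 FPKM in SMC#2 (log2 difference 0.99, SE 0.10, adjusted p = 4.69e-06), whereas Chgb stayed at 25.5 ± 0.411 and 23.3 ± 0.698 FPKM (adjusted p = 0.0765). Pcsk1n, an inhibitor of prohormone convertase 1, was at 92.3, 89.6 and 112 FPKM in SMC#1 and 21.6, 19.1 and 19.6 FPKM in SMC#2 (log2 difference 2.22, SE 0.091, adjusted p = 3.01e-09). Scg2, a granin, averaged 8.999 against 25.7 FPKM, log2 difference -1.42, Ptprn, a membrane protein of secretory granules, 2.63 against 8.62 FPKM, log2 difference -1.41, and Pcsk2, a prohormone convertase, 6.66 against 15.9 FPKM, log2 difference -1.14. Syp and Uchl1, a vesicle protein and a neuronal deubiquitinase used as markers, were higher in SMC#1 by 0.67 and 0.55. Syp and Pcsk1n lie in a stretch of chromosome X described below, where 153 of 168 genes were higher in SMC#1 (median 0.81).

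Of 47 neuropeptide and hormone genes 9 were tested, with 4 higher in SMC#1 and 3 lower (4 and 4 after median-ratio scaling). Calca, the gene of calcitonin and its related peptide, was at 59.9, 65.3 and 64.8 FPKM in SMC#1 and 51.4, 51.7 and 48.9 FPKM in SMC#2 (log2 difference 0.32, SE 0.068, adjusted p = 0.00173), a call lost after quantile normalization (adjusted p = 0.0741). Cartpt, an appetite-regulating peptide, was at 2.05, 1.09 and 1.65 FPKM in SMC#1 and 12.8, 9.10 and 10.5 FPKM in SMC#2 (log2 difference -2.19, SE 0.15, adjusted p = 8.73e-07). Grp, the bombesin-like growth peptide of SCLC, was low in both lines, at 4.06, 3.59 and 4.47 FPKM in SMC#1 and 7.03, 4.37 and 4.87 FPKM in SMC#2 (adjusted p = 0.0542), and was called lower in SMC#1 after either scaling, in the fit of all 12 libraries and without SMC#2 replicate 2, among the alternatives (adjusted p = 0.0101 to 0.0274). Of the surface proteins used for the sort, Ncam1 stayed at 37.2 ± 0.601 and 33.4 ± 2.05 FPKM (adjusted p = 0.0586, called higher in SMC#1 without SMC#2 replicate 2), and Cd44 was at most 0.229 FPKM in any library.

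Neurons pass signals through vesicle release, ion channels and receptors, and genes of each kind went both ways. Of 38 synaptic vesicle genes, 17 were higher in SMC#1 and 14 were lower, of 35 voltage-gated channels 18 and 13, and of 17 ligand-gated receptors 9 and 5 (16 and 15, 15 and 13, and 8 and 6 after median-ratio scaling). That is 44.7%, 51.4% and 52.9% higher and 36.8%, 37.1% and 29.4% lower, against 42.1% and 23.8% of all tested genes, which were split as well. Syn1, a synapsin that tethers vesicles (on chromosome X), was at 36.2, 33.0 and 40.9 FPKM in SMC#1 and 7.90, 8.04 and 7.38 FPKM in SMC#2 (log2 difference 2.10, SE 0.079, adjusted p = 1.63e-09), and Syn2, its relative on chromosome 6, averaged 7.58 against 1.004 FPKM, log2 difference 2.10. Stx1a, a syntaxin of the release machinery, was at 2.31, 2.18 and 2.16 FPKM in SMC#1 and 12.3, 11.6 and 12.7 FPKM in SMC#2 (log2 difference -2.03, SE 0.066, adjusted p = 5.51e-10). Each line was thus higher in some genes of the same machinery.

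Scn3a, a sodium channel of developing neurons, was at 15.1, 15.3 and 14.4 FPKM in SMC#1 and 1.35, 1.43 and 1.15 FPKM in SMC#2 (log2 difference 2.79, SE 0.071, adjusted p = 9.29e-11). Kcnb2, a delayed rectifier potassium channel, was at 0.548, 0.549 and 0.507 FPKM in SMC#1 and 5.71, 6.96 and 6.25 FPKM in SMC#2 (log2 difference -2.25, SE 0.08, adjusted p = 1.08e-09). Gria3, an AMPA receptor subunit on chromosome X, was at 10.3, 10.97 and 9.52 FPKM in SMC#1 and 0.135, 0.127 and 0.0910 FPKM in SMC#2 (log2 difference 3.33, SE 0.075, adjusted p = 3.95e-11). In each of these genes 1 line stayed under 2 FPKM. Htr3a, a serotonin-gated channel, averaged 25.1 against 6.06 FPKM, log2 difference 1.88, and Cacna1h, a T-type calcium channel, 2.75 against 6.99 FPKM, log2 difference -1.09.

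Of 39 axon guidance genes, 17 were higher in SMC#1 and 14 were lower (16 and 15 after median-ratio scaling). That is 43.6% and 35.9%, against 42.1% and 23.8% of all tested genes. Nrp1, a receptor for class 3 semaphorins and VEGF, was at 1.87, 1.70 and 1.39 FPKM in SMC#1 and 19.1, 16.9 and 19.8 FPKM in SMC#2 (log2 difference -2.89, SE 0.086, adjusted p = 2.91e-10). Sema3e, a secreted semaphorin, averaged 14.8 against 3.39 FPKM, log2 difference 1.85, and Ntn1, a netrin, 3.11 against 11.3 FPKM, log2 difference -1.58. Ephb6, an ephrin receptor without kinase activity, and Sema6d had differences of 1.72 and 1.53.

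**Figure D3:**
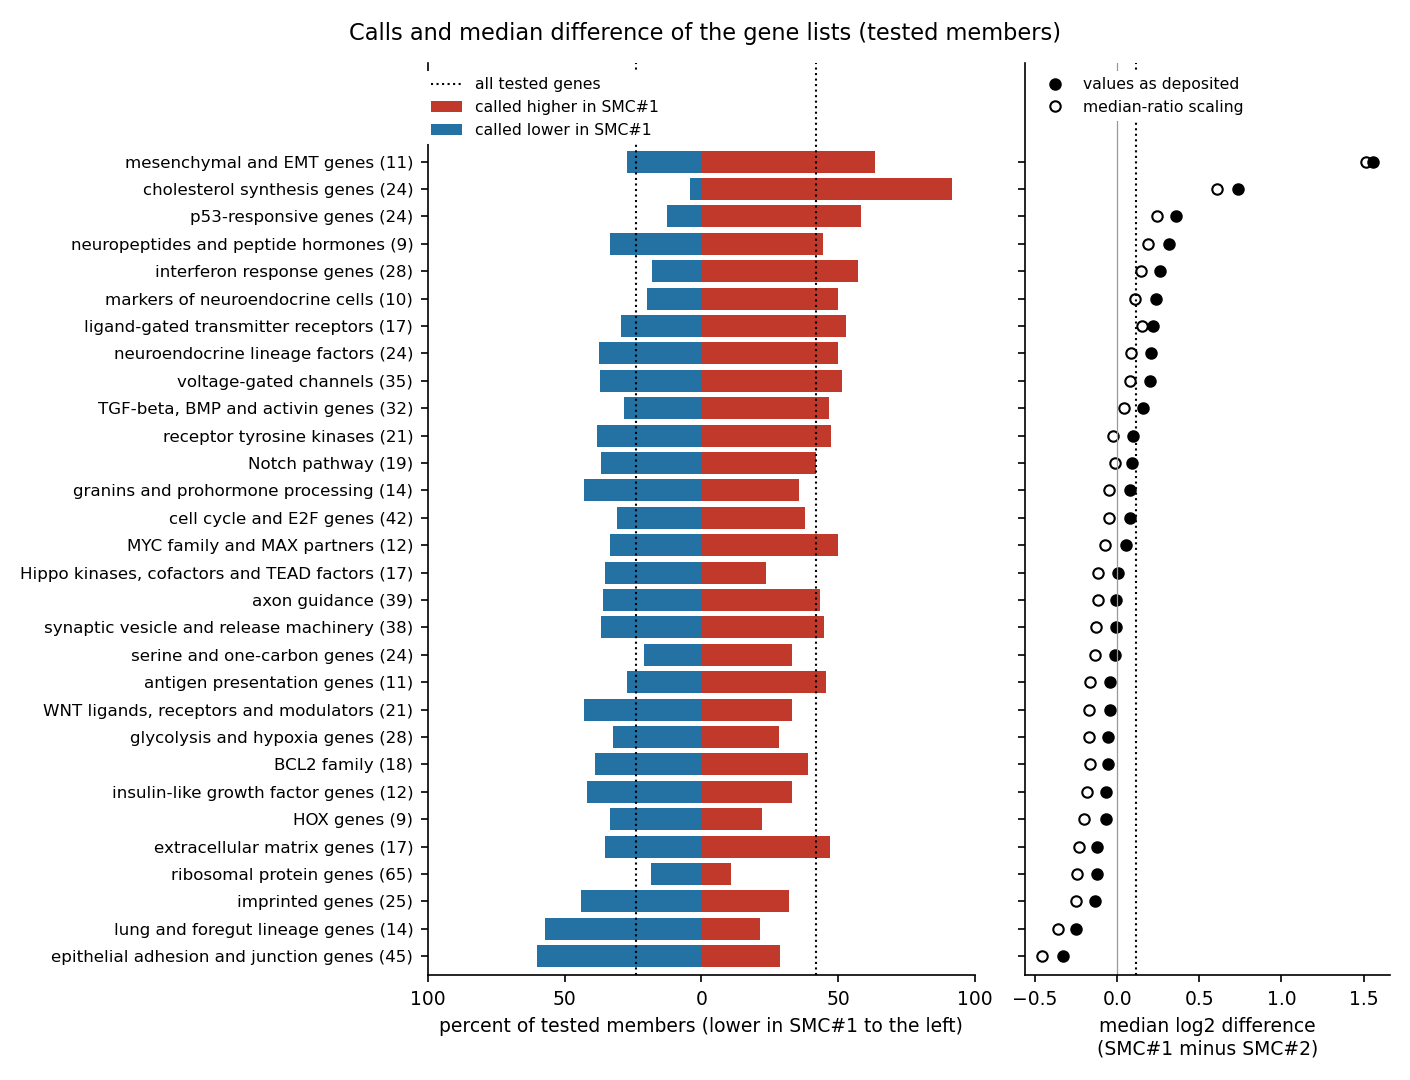
Gene lists by row with the number of tested members in brackets. The left panel shows the percent of members called lower (blue, to the left) or higher (red, to the right) in SMC#1 with dotted lines at 23.8% and 42.1% for all tested genes, and the right panel shows the median log2 difference as deposited (filled) and after median-ratio scaling (open). Cholesterol synthesis genes have the longest red bar (22 of 24), and epithelial genes lie at the lower end.

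Epithelial adhesion and junction genes leaned towards SMC#2. Of 45 tested, 13 were higher in SMC#1 and 27 were lower, where 23.8% of all genes were lower, with a median of -0.33 (12 and 31 after median-ratio scaling). Cdh1, E-cadherin, was at 41.8, 41.6 and 39.8 FPKM in SMC#1 and 78.3, 75.3 and 71.0 FPKM in SMC#2 (log2 difference -0.85, SE 0.068, adjusted p = 7.56e-07). Epcam, an epithelial adhesion molecule, was at 198, 191 and 206 FPKM in SMC#1 and 294, 260.5 and 266 FPKM in SMC#2 (log2 difference -0.46, SE 0.09, adjusted p = 0.000945). Cldn6, a claudin of embryonic epithelium, was at 9.69, 9.54 and 10.1 FPKM in SMC#1 and 74.2, 62.1 and 65.7 FPKM in SMC#2 (log2 difference -2.66, SE 0.073, adjusted p = 1.5e-10). All 3 were higher in each SMC#2 library. Grhl3, a grainyhead factor of surface epithelium, averaged 0.239 against 12.5 FPKM, log2 difference -3.44, and Muc1, a membrane mucin, 0.430 against 7.11 FPKM, log2 difference -2.51. The keratins Krt19 (above) and Krt20, at 6.06, 4.72 and 8.14 FPKM in SMC#1 and 0.0996, 0.126 and 0.122 FPKM in SMC#2, went the other way (Krt20 log2 difference 2.68), as did the desmosomal Pkp1 (1.49).

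Of 28 mesenchymal and EMT genes only 11 reached the filter, of which 7 were higher in SMC#1 and 3 were lower, with a median of 1.56 (7 and 4 after median-ratio scaling). Markers of fibroblasts summed to 4.14 to 5.23 FPKM in SMC#1 and 1.81 to 3.07 FPKM in SMC#2. Of the 9, Dcn, a matrix proteoglycan, was higher in SMC#1 (3.18 against 0.297 FPKM, log2 difference 1.68), Thy1, a surface glycoprotein, was lower (1.04 against 2.003 FPKM, log2 difference -0.53), and 7 were not tested, among them Col1a2, which was listed at 0 in all 6 libraries. Their part in the mesenchymal differences was not tested. Snai2, a repressor of E-cadherin, was at 6.62, 6.64 and 6.28 FPKM in SMC#1 and 1.30, 1.32 and 1.25 FPKM in SMC#2 (log2 difference 1.72, SE 0.068, adjusted p = 2.42e-09). Cald1, an actin-binding protein, averaged 20.2 against 5.40 FPKM, log2 difference 1.73, and S100a4, a calcium-binding protein linked to motility, was at 21.997, 12.9 and 26.7 FPKM in SMC#1 and 3.42, 2.45 and 2.77 FPKM in SMC#2 (log2 difference 2.42, SE 0.28, adjusted p = 0.000779). Cdh2, N-cadherin, was an exception, at 23.8 ± 0.579 against 31.5 ± 1.01 FPKM (log2 difference -0.39). Of 17 matrix genes, 8 were higher in SMC#1 and 6 were lower, and median-ratio scaling turned this to 6 and 9. Ncan, a neural proteoglycan, averaged 10.5 against 1.4998 FPKM, log2 difference 2.21, and Thbs1, a thrombospondin, 0.529 against 6.43 FPKM, log2 difference -2.29.

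HOX genes mark position along the body axis, and both lines expressed genes of the Hoxb cluster on chromosome 11. Of 39 HOX genes 9 were tested, 2 were higher in SMC#1 and 3 were lower (2 and 5 after median-ratio scaling). Hoxb4 was at 13.5, 13.4 and 13.6 FPKM in SMC#1 and 8.24, 9.63 and 8.84 FPKM in SMC#2 (log2 difference 0.55, SE 0.066, adjusted p = 2.25e-05). Its neighbour Hoxb3 went the other way at 10.2, 10.3 and 11.2 FPKM in SMC#1 and 14.96, 17.1 and 15.3 FPKM in SMC#2 (log2 difference -0.53, SE 0.069, adjusted p = 4.1e-05), and Hoxb8 and Hoxb9 were also lower in SMC#1, by -0.81 and -0.57.

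Imprinted genes, of which 1 parental copy is normally silent, held several of the widest contrasts. Of 25 tested, 8 were higher in SMC#1 and 11 were lower, with a median of -0.13 (7 and 14 after median-ratio scaling). Besides Igf2 and Ndn, Grb10, an adaptor that restrains growth factor receptors, was at 0.122, 0.0851 and 0.123 FPKM in SMC#1 and 10.6, 12.05 and 9.76 FPKM in SMC#2 (log2 difference -3.40, SE 0.084, adjusted p = 6.74e-11). Peg12, Magel2 and Mkrn3, the neighbours of Ndn on chromosome 7, were also lower in SMC#1, at 0.0669 against 5.85 FPKM, log2 difference -2.68, 0.166 against 2.01 FPKM, log2 difference -1.37 and 1.07 against 3.29 FPKM, log2 difference -1.06, and were chosen after their values were seen. Cdkn1c, a CDK inhibitor on chromosome 7, went the other way at 52.7, 46.9 and 58.9 FPKM in SMC#1 and 25.1, 23.7 and 22.2 FPKM in SMC#2 (log2 difference 1.12, SE 0.086, adjusted p = 5.4e-07), as did Kcnq1, a potassium channel gene of the same domain, by 1.31. Trappc9, a vesicle tethering gene, was higher by 0.89. It lies in a stretch of chromosome 15 described below, where 21 of 30 genes were higher in SMC#1.

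Of 12 insulin-like growth factor genes, Igf2 among them, 4 were higher in SMC#1 and 5 were lower (3 and 6 after median-ratio scaling). Igfbp2, a binding protein for these ligands, was at 163, 152 and 207 FPKM in SMC#1 and 18.0, 18.0 and 14.5 FPKM in SMC#2 (log2 difference 3.28, SE 0.12, adjusted p = 2.77e-09). Igfbp5, another binding protein, averaged 96.4 against 149 FPKM, log2 difference -0.62, and Igf1r, the receptor of both ligands, 6.84 against 10.7 FPKM, log2 difference -0.57. Insr, the insulin receptor, was higher by 0.33, a call lost after median-ratio scaling (adjusted p = 0.0654).

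Receptor tyrosine kinases were split, 10 higher in SMC#1 and 8 lower of 21 (8 and 8 after median-ratio scaling). That is 47.6% and 38.1%, against 42.1% and 23.8% of all tested genes. Fgfr1 averaged 6.59 against 3.07 FPKM, log2 difference 0.90, and its relative Fgfr2 went the other way at 1.71 against 6.95 FPKM, log2 difference -1.56. Fgfr1 lies in a stretch of chromosome 8 described below, where 93 of 102 genes were higher in SMC#1. Ror2, a receptor for WNT5A, averaged 1.58 against 9.50 FPKM, log2 difference -2.03, and Ddr1, a collagen receptor, was higher in SMC#1 by 0.69. Of 21 WNT genes, 7 were higher in SMC#1 and 9 were lower (7 and 11 after median-ratio scaling), with Nkd1 and Notum, both feedback inhibitors, higher by 1.27 and 1.13, and Tcf7l1 and Axin2, a repressor and a scaffold of the pathway, at differences of -2.29 and -0.73.

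Id proteins, which are induced by BMP signals and hold bHLH factors inactive, went in opposite directions. Id1 was at 966, 849.9 and 1026 FPKM in SMC#1 and 148, 124 and 140.5 FPKM in SMC#2 (log2 difference 2.77, SE 0.11, adjusted p = 2.61e-09). Id3 was at 69.1, 65.1 and 75.6 FPKM in SMC#1 and 533, 491 and 492 FPKM in SMC#2 (log2 difference -2.84, SE 0.09, adjusted p = 4.85e-10). The lines did not overlap in either gene, as in most tested genes. Of 32 TGF-beta, BMP and activin genes, 15 were higher in SMC#1 and 9 were lower (13 and 9 after median-ratio scaling), or 46.9% and 28.1%, near the 42.1% and 23.8% of all tested genes. Inhbb, an activin subunit, averaged 8.24 against 0.833 FPKM, log2 difference 2.34, Bmp1, a protease that activates matrix and growth factor precursors, 21.3 against 5.63 FPKM, log2 difference 1.75, and Acvr2b, an activin receptor, 5.59 against 11.7 FPKM, log2 difference -0.94.

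E2F factors also went in opposite directions. E2f2 was at 19.8, 17.9 and 19.5 FPKM in SMC#1 and 618, 647 and 586 FPKM in SMC#2 (log2 difference -4.95, SE 0.08, adjusted p = 3.45e-12). E2f1 was at 77.9, 72.1 and 79.7 FPKM in SMC#1 and 25.6, 25.5 and 25.9 FPKM in SMC#2 (log2 difference 1.54, SE 0.065, adjusted p = 3.84e-09). Both are activators of S-phase genes that RB1 normally restrains. Of 42 cell cycle genes, 16 were higher in SMC#1 and 13 were lower, and median-ratio scaling turned this to 13 and 16. Ccnd3, a D-type cyclin, averaged 23.2 against 11.2 FPKM, log2 difference 0.98, Rbl1, the RB relative p107, 5.35 against 10.2 FPKM, log2 difference -0.82, and Top2a, a topoisomerase of dividing cells, 98.4 against 166 FPKM, log2 difference -0.75.

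E2f2 and Id3 stand next to each other on chromosome 4 (chr4:135728309-135751971 and chr4:135699737-135701307, mm9), between genes that were also higher in SMC#2. Stpg1, a sperm-tail protein, was at 0.0778, 0.133 and 0.209 FPKM in SMC#1 and 46.6, 49.2 and 42.3 FPKM in SMC#2 (log2 difference -5.37, SE 0.076, adjusted p = 1.86e-12), and Zfp46, a zinc finger gene on the other side, averaged 6.95 against 156 FPKM, log2 difference -4.31. Rpl11, a ribosomal protein gene in the same place, was at 3.45, 4.87 and 3.06 FPKM in SMC#1 and 80.9, 64.5 and 90.1 FPKM in SMC#2 (log2 difference -4.06, SE 0.16, adjusted p = 2.13e-07). Ribosomal protein genes have many near-identical copies, so this value is uncertain. Of 65 ribosomal protein genes tested, 7 were higher in SMC#1 and 12 were lower (5 and 26 after median-ratio scaling).

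Among cell death regulators of the BCL2 family, 7 of 18 were higher in SMC#1 and 7 were lower (6 and 9 after median-ratio scaling). That is 38.9% each way, against 42.1% and 23.8% of all tested genes. The lines differed in which protective member was high. Bcl2l1, which encodes BCL-XL, was at 108, 102 and 117 FPKM in SMC#1 and 29.0, 25.7 and 26.4 FPKM in SMC#2 (log2 difference 1.97, SE 0.077, adjusted p = 2.12e-09). Mcl1 was at 39.3, 38.1 and 35.9 FPKM in SMC#1 and 182, 164 and 174 FPKM in SMC#2 (log2 difference -2.17, SE 0.075, adjusted p = 8.14e-10). Of the BH3-only members that oppose them, Hrk averaged 8.63 against 0.712 FPKM, log2 difference 2.50, Bmf 5.01 against 10.8 FPKM, log2 difference -0.97, and Bik (above) was at most 0.856 FPKM in SMC#1.

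Genes that respond to p53 leaned towards SMC#1, in lines from a model in which Trp53 is deleted. Of 24 tested, 14 were higher in SMC#1 and 3 were lower, where 42.1% of all genes were higher, with a median of 0.36 (13 and 4 after median-ratio scaling). Perp, a desmosomal protein, was at 12.1, 12.1 and 13.3 FPKM in SMC#1 and 1.52, 1.55 and 1.71 FPKM in SMC#2 (log2 difference 2.38, SE 0.07, adjusted p = 2.69e-10). Eda2r, a receptor of the TNF family on chromosome X, was at 6.63, 7.04 and 6.50 FPKM in SMC#1 and was listed at 0 in the SMC#2 libraries (adjusted p = 5.03e-11). Cdkn1a, the CDK inhibitor p21, went the other way at 22.2, 22.6 and 24.8 FPKM in SMC#1 and 35.1, 40.6 and 28.5 FPKM in SMC#2 (log2 difference -0.55, SE 0.11, adjusted p = 0.00126). Trp53inp1, a stress response gene, averaged 10.1 against 2.14 FPKM, log2 difference 1.82.

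Cholesterol synthesis was the list with the most even direction. Of 24 tested genes, 22 were higher in SMC#1, 1 was lower and 1 did not pass, where 42.1% of all genes were higher, with a median of 0.73 against 0.11 (21 higher and 1 lower after either scaling, with a median of 0.61). Nsdhl, which removes methyl groups from sterol precursors (on chromosome X), was at 33.5, 29.5 and 35.0 FPKM in SMC#1 and 9.22, 7.58 and 8.47 FPKM in SMC#2 (log2 difference 1.84, SE 0.083, adjusted p = 6.71e-09). Msmo1, another enzyme of sterol demethylation, was at 56.1, 60.7 and 67.1 FPKM in SMC#1 and 19.5, 15.3 and 17.9 FPKM in SMC#2 (log2 difference 1.75, SE 0.093, adjusted p = 3.09e-08). Fdft1, squalene synthase, was at 38.1, 34.8 and 41.8 FPKM in SMC#1 and 16.3, 12.5 and 15.4 FPKM in SMC#2 (log2 difference 1.32, SE 0.10, adjusted p = 5.76e-07). None of these overlapped between the lines, as was the case for most tested genes. Nsdhl lies in the stretch of chromosome X described below, where 153 of 168 genes were higher in SMC#1. Sqle, another cholesterol enzyme, lies in that of chromosome 15, where 21 of 30 were higher. The part of position in the direction of this list was not tested. Srebf1, a factor that drives lipid genes, was the 1 lower gene, with overlapping lines at 33.9, 28.7 and 37.9 and 42.1, 45.7 and 37.3 FPKM (log2 difference -0.31, SE 0.10, adjusted p = 0.0216), a call lost without the filter on low values (adjusted p = 0.0581) and without SMC#1 replicate 2 or SMC#2 replicate 1 or 2 (adjusted p = 0.0545 to 0.0897).

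Other metabolic lists were split. Of 28 glycolysis and hypoxia genes, 8 were higher in SMC#1 and 9 were lower (8 and 11 after median-ratio scaling), and members of 1 step went in opposite directions. Pfkm, the muscle phosphofructokinase, was at 15.7, 16.5 and 18.6 FPKM in SMC#1 and 0.648, 0.563 and 0.752 FPKM in SMC#2 (log2 difference 3.44, SE 0.082, adjusted p = 5.14e-11), whereas Pfkp, the platelet form, averaged 13.4 against 26.1 FPKM, log2 difference -0.91. Slc16a3, a lactate exporter, was at 2.21, 1.36 and 4.07 FPKM in SMC#1 and 28.0, 29.0 and 22.6 FPKM in SMC#2 (log2 difference -3.02, SE 0.31, adjusted p = 0.00061). Slc16a1, another lactate carrier, averaged 8.68 against 25.8 FPKM, log2 difference -1.47, and Eno2, the neuronal enolase, 8.43 against 2.61 FPKM, log2 difference 1.38. Of 24 serine and one-carbon genes, 8 were higher in SMC#1 and 5 were lower, and median-ratio scaling turned this to 5 and 8.

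Of 28 interferon response genes, 16 were higher in SMC#1 and 5 were lower, with a median of 0.26 (13 and 5 after median-ratio scaling). That is 57.1% and 17.9%, against 42.1% and 23.8% of all tested genes. Tmem173, which encodes the DNA sensing adaptor STING, was at 34.4, 29.2 and 39.6 FPKM in SMC#1 and 12.8, 11.2 and 11.3 FPKM in SMC#2 (log2 difference 1.46, SE 0.10, adjusted p = 3.48e-07). Rsad2, an antiviral enzyme, averaged 7.79 against 1.96 FPKM, log2 difference 1.57. Ifitm2 and Ifitm3, near-identical membrane proteins whose reads may be split between copies, went the other way at differences of -0.66 and -1.01. Of 11 antigen presentation genes, 5 were higher in SMC#1 and 3 were lower (5 and 5 after median-ratio scaling). The class I genes H2-D1 and H2-K1, which also have close copies, averaged 17.9 against 37.3 FPKM, log2 difference -1.02 and 2.54 against 5.11 FPKM, log2 difference -0.80. Calr and Tapbp, chaperones of class I loading, went the other way by 0.83 and 0.60.

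Hippo genes were split, 4 of 17 higher in SMC#1 and 6 lower (3 and 7 after median-ratio scaling). That is 23.5% and 35.3%, against 42.1% and 23.8% of all tested genes. Tead2, a DNA-binding partner of YAP and TAZ, was an exception at 0.358, 0.134 and 0.300 FPKM in SMC#1 and 12.8, 13.3 and 12.3 FPKM in SMC#2 (log2 difference -3.45, SE 0.084, adjusted p = 6.3e-11). Amotl2, a scaffold that holds YAP outside the nucleus, averaged 12.8 against 6.70 FPKM, log2 difference 0.85, and its relative Amotl1 4.04 against 6.58 FPKM, log2 difference -0.58. Smarca4, the SWI/SNF ATPase BRG1, did not pass at 69.7 ± 3.25 and 72.6 ± 3.01 FPKM (adjusted p = 0.498), and was lower in SMC#1 after either scaling.

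To ask whether neighbouring genes differed together, the tested genes with at least 5 FPKM in the higher line were put in order along the mm9 chromosomes (9120 genes), and a median difference was taken over each 15 genes in a row. Of these genes 42.9% were higher in SMC#1 and 22.6% were lower, with a median of 0.12. Windows past 0.5 in size joined into 45 stretches, 41 higher in SMC#1 and 4 lower, with 1041 genes in all. Stretches may overlap at their ends. Described are 6, the longest of each chromosome that had one with at least 30 genes. Another 3 were as long but not the longest of their chromosome. Of these, chr8:36528319-63609031 from Eri1 to Nek1 had 37 of 45 genes higher in SMC#1 and 3 lower (median 0.54), chrX:108501446-147092126 from Rps6ka6 to Tro had 34 of 45 higher and 5 lower (median 0.65), and chrX:141880967-160371598 from Amot to Ap1s2 had 33 of 41 higher and 3 lower (median 0.60).

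**Figure D4:**
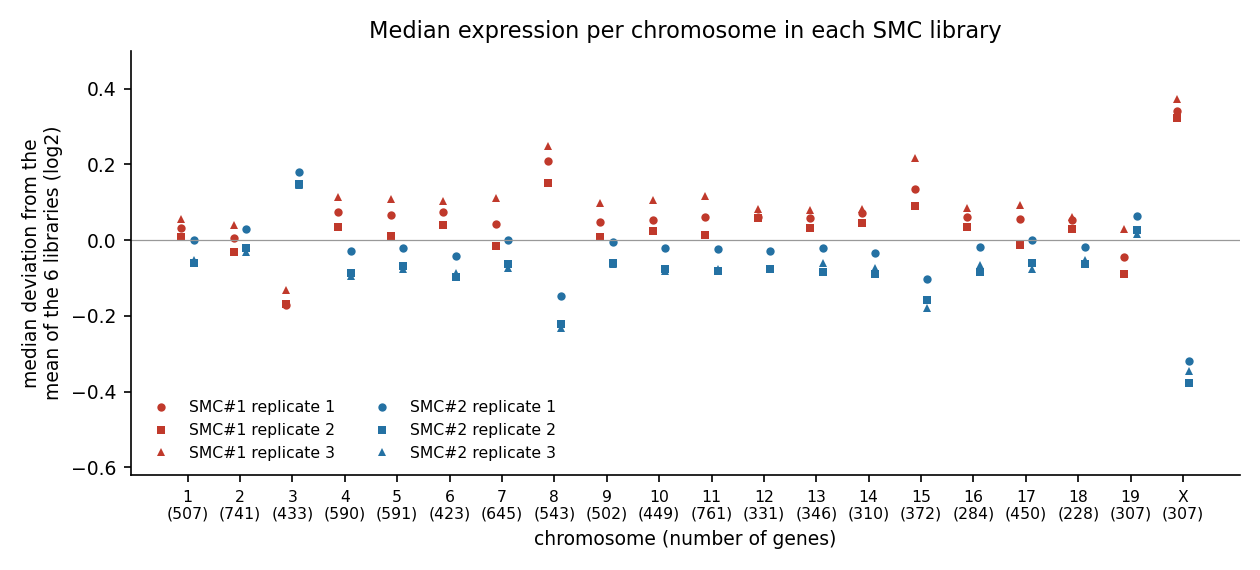
Median deviation (log2) of the ordered genes from the mean of the 6 libraries on each chromosome, 1 symbol per library, with SMC#1 in red, SMC#2 in blue and the number of genes in brackets. The lines stand apart most on chromosomes X and 8, with SMC#1 above, and on chromosome 3, with SMC#2 above.

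Whole chromosomes differed. On chromosome X, 84.4% of 307 genes were higher in SMC#1 and 5.21% were lower (median 0.70), and on chromosome 8, 73.3% of 543 were higher and 38 genes were lower (median 0.41). On chromosome 15 the shares were 61.6% and 13.7% of 372 (median 0.28), and on chromosome 3 they were 18.0% and 55.2% of 433 (median -0.32). The other chromosomes had medians of -0.098 to 0.155, with chromosome 19 lowest. These regions held a minor share of the wide differences. Outside the chromosome 3 stretch (below) and chromosomes 8 and X, 739 of the 902 genes at least 2-fold higher and 446 of the 577 lower remained, and the median of the 10686 genes there was 0.089.

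The deepest stretch lay on chromosome 3 (chr3:90145576-107701603), from Gatad2b to Gstm5. Of its 131 genes, 121 were lower in SMC#1, 5 were higher and 5 did not pass, with a median of -1.45, middle values (quartiles) of -1.83 and -0.96, and a range of -4.002 to 2.42. Relative to the mean of the 6 libraries, the median gene was at -0.71, -0.74 and -0.69 in the SMC#1 libraries and 0.75, 0.69 and 0.69 in the SMC#2 libraries. The stretch held 96 of the 577 genes at least 2-fold lower in SMC#1 (16.6%). The 5 genes before it had a median of -0.45, the 5 after it -0.25, and the other 302 genes of the chromosome -0.069. Set against the mean of the attached lines, the median gene of the stretch was 1.24 higher in SMC#2 and differed by -0.12 in SMC#1, while Non-SMC#1 minus Non-SMC#2 was -0.17. These values share libraries and are given side by side as a description.

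Within it, Anp32e, a histone chaperone, was at 90.4, 91.8 and 88.5 FPKM in SMC#1 and 441, 417 and 431 FPKM in SMC#2 (log2 difference -2.24, SE 0.081, adjusted p = 1.19e-09). Mrps21, a protein of the mitochondrial ribosome, averaged 227 against 785 FPKM, log2 difference -1.78, and Psmb4, a proteasome subunit, 212 against 707 FPKM, log2 difference -1.73. Mcl1 and Slc16a1 (above) and the semaphorin Sema6c (2.83 against 7.95 FPKM, log2 difference -1.22) lie in it too. S100a4 lies in it as well and went against it. All 5 genes of the stretch that were higher in SMC#1, S100a4 included, stand near its start, before Lor (chr3:91884193). Genes went both ways there.

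**Figure D5:**
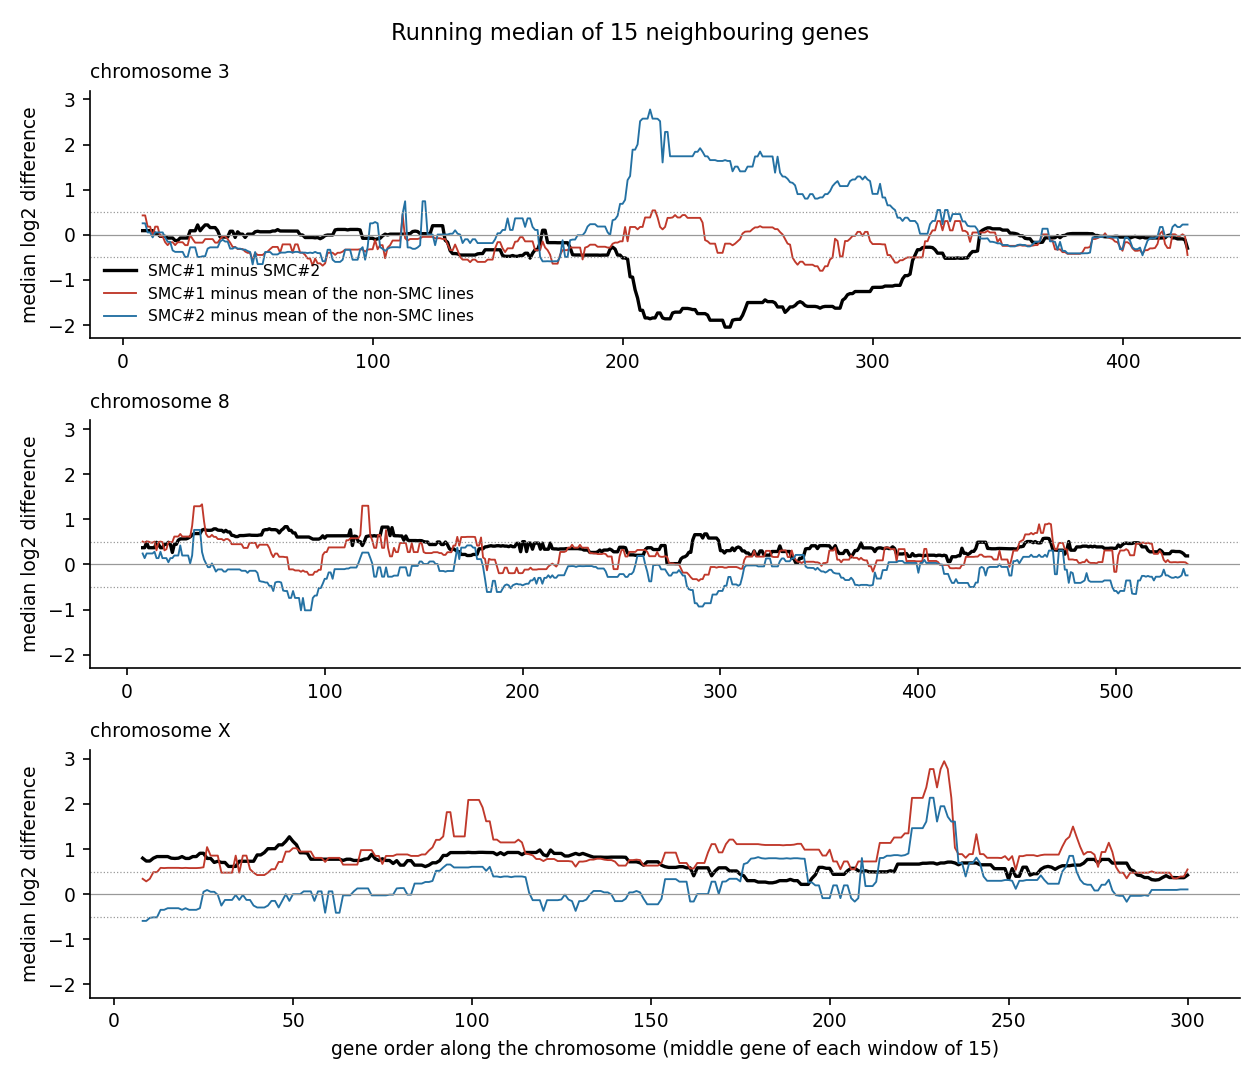
Running median over 15 neighbouring genes along chromosomes 3, 8 and X, with gene order on the x axis and the log2 difference on the y axis, for SMC#1 minus SMC#2 (black), SMC#1 minus the mean of the non-SMC lines (red) and SMC#2 minus that mean (blue), and dotted lines at 0.5 in either direction. On chromosome 3 the black line falls to -2.05 where the blue line rises and the red line stays closer to 0, and on chromosome X the black line reaches 1.27.

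On chromosome X the stretch chrX:6356432-92853848, from Dgkk to Zc4h2, had 153 of 168 genes higher in SMC#1, 5 lower and 10 not passing (median 0.81), and the other 139 genes had a median of 0.52. Uba1, the ubiquitin-activating enzyme, was at 218, 203 and 231 FPKM in SMC#1 and 90.4, 77.5 and 78.4 FPKM in SMC#2 (log2 difference 1.39, SE 0.091, adjusted p = 1.49e-07). Pgrmc1, a heme-binding membrane protein, averaged 179 against 58.9 FPKM, log2 difference 1.59, Ndufb11, a complex I subunit, 231 against 92.3 FPKM, log2 difference 1.31, Maged1, a MAGE family protein, 255 against 130.1 FPKM, log2 difference 0.97, and Slc25a5, a mitochondrial ADP/ATP carrier, 499 against 339 FPKM, log2 difference 0.57. Xist, the RNA that coats an inactive X chromosome, was at 102, 116 and 87.9 FPKM in SMC#1 and 10.7, 14.3 and 10.6 FPKM in SMC#2 (log2 difference 2.999, SE 0.12, adjusted p = 1.26e-08), and the Y-linked genes Ddx3y, Eif2s3y, Kdm5d and Uty were listed at 0 in all 6 libraries. Xist thus moved with the X-linked genes, and its part in their difference was not tested. Set against the mean of the attached lines, the median gene of the stretch was 0.80 higher in SMC#1 and differed by 0.0012 in SMC#2.

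On chromosome 8, chr8:4735980-41471658 from Shcbp1 to Micu3 had 93 of 102 genes higher in SMC#1, 1 lower and 8 not passing (median 0.65), against 0.35 over the other 441 genes. Sox1 and Fgfr1 (above) lie in it. Lamp1, a lysosomal membrane protein, averaged 136 against 80.0 FPKM, log2 difference 0.76, Ppp2cb, a catalytic subunit of protein phosphatase 2A, 89.0 against 44.6 FPKM, log2 difference 0.98, Tfdp1, the partner of E2F factors, 101 against 62.6 FPKM, log2 difference 0.68, and Eif4ebp1, a brake on translation, 109 against 68.8 FPKM, log2 difference 0.68. Both the 5 genes before it (0.49) and the 5 after it (0.62) were of similar size, so its ends are not sharp.

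On chromosome 2, chr2:153053505-155969922 from Plagl2 to Nfs1 had 24 of 37 genes higher in SMC#1 and 11 lower (median 0.65, strongest window 1.37). Trp53inp2, an autophagy gene, was at 102, 93.3 and 105 FPKM in SMC#1 and 22.2, 19.96 and 21.1 FPKM in SMC#2 (log2 difference 2.20, SE 0.072, adjusted p = 6.03e-10). Trpc4ap, a ubiquitin ligase adaptor, averaged 89.6 against 34.0 FPKM, log2 difference 1.37, Dynlrb1, a dynein light chain, 381 against 211 FPKM, log2 difference 0.85, Chmp4b, an ESCRT subunit, 109 against 59.9 FPKM, log2 difference 0.86, and Raly, an RNA-binding protein, 301 against 191 FPKM, log2 difference 0.65. E2f1 lies in the stretch. The 11 lower genes of the stretch stand before Necab3 or after BC029722, towards its ends. The 5 genes before it, Bcl2l1, Tpx2, Pdrg1, Xkr7 and Tm9sf4, had a median of 1.56, and Id1 lies beside Bcl2l1 (chr2:152561987-152563146 and chr2:152584468-152657464), whereas the 5 after it had -0.086.

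The described stretches of chromosomes 15 and 4 were shallower than the other 4. On chromosome 15, chr15:58765365-75578352 from Ndufb9 to Mafa had 21 of 30 genes higher in SMC#1 and 5 lower (median 0.53). Of its most abundant genes, Ndufb9, a complex I subunit, and Khdrbs3, a splicing regulator, were higher by 0.63 and 0.60, Sqle, a cholesterol enzyme, by 0.39, and the calls of Nsmce2 and Chrac1 were lost after either scaling and without SMC#2 replicate 2, among other libraries. On chromosome 4, chr4:41061460-45003568 from Nol6 to Grhpr had 24 of 32 genes higher and none lower (median 0.52). Enho, a gene of energy balance, was at 37.3, 39.3 and 45.4 FPKM in SMC#1 and 2.98, 2.89 and 2.31 FPKM in SMC#2 (log2 difference 3.48, SE 0.091, adjusted p = 1.15e-10). Its most abundant gene, Clta, a clathrin light chain, did not pass (145 against 138 FPKM, log2 difference 0.07, adjusted p = 0.576), nor did Dctn3 (adjusted p = 0.0841, called without SMC#1 replicate 2 or SMC#2 replicate 1), the call of Ubap2 was lost after quantile normalization and in the fit of all 12 libraries, and that of Stoml2 after either scaling, with no filter, in the fit of all 12 libraries and without any of 4 single libraries (SMC#1 replicates 1 and 3, SMC#2 replicates 2 and 3), at adjusted p = 0.0611 to 0.486.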

How the data were processed

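The authors took total RNA with TRIzol from cultured lines (RPMI1640 with serum) and sequenced paired-end reads on a NovaSeq instrument. Per the submitters' notes, reads were aligned with STAR 2.6.1b to mm10 and compared with DESeq2. The values in the deposited table are FPKM for each of the 12 libraries, not pooled. The sources used here do not name the tool behind them. Positions fit the older build mm9 (of 22427 symbols matched to GRCm38, 2571 overlapped their position there), so coordinates are mm9 and count from 1, apart from those of the RefSeq promoters. Total counts and the strand setting are not given, so depth is known only in relative terms and overlapping or antisense genes cannot be told apart. A value of 0 may be a failed estimate, so such genes are described as listed at 0 and no fold is given against them. The paper's data statement assigns the series to another comparison, and the sample labels were followed.

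The filter asked for 1 FPKM or more in at least 3 of the 6 SMC libraries. Kept rows were compared as log2(FPKM + 1) in R 4.3.3 by limma 3.58.1, with its trend and robust settings, as SMC#1 minus SMC#2, two-sided, with Benjamini-Hochberg adjustment over all 11892 rows, of which 111 shared a symbol. A count test was not run because the values are FPKM. Genes were called at an adjusted p under 0.05. The procedure was tested on simulated data. Members and lists were chosen with earlier results of these data known. Lists are described by counts and medians beside those of all genes. Genes were named by rule: the 12 largest differences in each direction with at least 10 FPKM in the higher line, no overlap and 1 row for the symbol, 41 genes of SCLC biology, up to 3 members per list and direction with at least 5 FPKM, and the 5 most abundant genes of each described stretch. The rule gave 237 genes, of which 226 were tested. Some named genes and a list are not reported here. Etv5, Ager, Foxj1, Dcn, Thy1 and Col1a2 were chosen after their values were seen. Alternatives were other pseudocounts, filters and scalings, a fit of all 12 libraries, plain limma, a replicate block, other windows and leaving out each library.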

Additional observations from a re-analysis of the deposited data

How the results depend on the processing

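Scaling changed the balance over all genes, which turned after quantile normalization and was nearly even after median-ratio scaling. Calls of 5003 higher and 2830 lower became 3869 and 4106 after quantile normalization and 3936 and 3908 after median-ratio scaling, and the larger side changed in 7 and 4 of the gene lists. No called difference of a named gene changed sign under the alternatives run. With at least 2-fold in addition, a pseudocount of 0.1 FPKM gave 1216 higher and 782 lower, one of 5 FPKM gave 341 and 231, and a filter of 5 FPKM gave 596 and 353, in place of 902 and 577. Leaving out 1 library gave 4499 to 5037 higher and 2508 to 2704 lower genes, and at 2-fold 843 to 933 and 569 to 594. Of 226 named genes, 21 lost or gained a call under some alternative.

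The number of stretches higher in SMC#1 (41) became 100 with windows of 9 genes, 12 with 31, 63 with all tested genes, 16 with genes of at least 20 FPKM and 23 after median-ratio scaling. Those lower (4) became 16 with windows of 9, 1 with 31, 1 with at least 20 FPKM, 7 with a pseudocount of 0.1 FPKM and 8 after median-ratio scaling. Leaving out 1 library gave 30 to 60 higher and 3 to 6 lower. The chromosome 3 median was -1.40 over all tested genes, -1.63 at 20 FPKM, -1.53 with a pseudocount of 0.1 FPKM and -1.57 after median-ratio scaling, and -1.48 to -1.40 without 1 library (129 to 132 genes). The chromosome X median was 0.73 over all tested genes, 0.86 at 20 FPKM and 0.68 after median-ratio scaling (0.78 to 0.81 without 1 library, 168 genes each), and its length was 78 genes with windows of 9, 106 over all tested genes, 106 at 20 FPKM and 80 after scaling. The chromosome 8 median was 0.68 at 20 FPKM, 0.695 with a pseudocount of 0.1 FPKM and 0.53 after scaling (0.63 to 0.68 without 1 library, 82 to 107 genes), and its length was 49 genes with windows of 9, 160 with 31, 64 over all tested genes and 43 after scaling. The chromosome 2 median was 0.59 over all tested genes, 0.85 at 20 FPKM and 0.52 after scaling (0.60 to 0.67 without 1 library, 35 to 37 genes), and its length was 58 with windows of 31. The chromosome 15 median was 0.42 over all tested genes and 0.41 after scaling (0.49 to 0.56 without 1 library, 24 to 30 genes), and its length was 18 with windows of 9, 48 with 31 and 17 after scaling. The chromosome 4 median was 0.40 after scaling (0.47 to 0.54 without 1 library, 32 to 33 genes), and its length was 0 genes at 20 FPKM and 20 after scaling. The cause of these changes was not tested.

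With the replicate number as a block, 5006 genes were higher, 2791 lower, 901 at least 2-fold higher and 570 lower. Grp was called lower in SMC#1 in that fit (adjusted p = 0.0104). Deviations of same-numbered libraries correlated at -0.14, 0.27 and 0.13, and those of different numbers at -0.28 to 0.19. Deviations from a mean of 3 libraries are tied to each other, so these values cannot decide whether the numbers pair the libraries.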

Other observations

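Several factors of gut, pancreas and neural development that stand on none of the gene lists, or were not described with them, separated the lines. They were chosen after their values were seen. Cdx2, a homeobox factor of the intestine, was at 7.48, 7.14 and 6.57 FPKM in SMC#1 and 76.9, 71.8 and 69.1 FPKM in SMC#2 (log2 difference -3.19, SE 0.068, adjusted p = 2.47e-11), and Irx1, an Iroquois factor, averaged 0.266 against 20.03 FPKM, log2 difference -4.05. Bcl11a, a zinc finger repressor of neural and blood development, was listed at 0 in each SMC#1 library and was at 10.5, 10.4 and 10.3 FPKM in SMC#2 (adjusted p = 1.39e-11). In SMC#1, Nkx2-2 and Isl1, homeobox factors of endocrine cells and motor neurons, were higher, at 4.91 against 0.0300 FPKM, log2 difference 2.50 and 4.26 against 0.136 FPKM, log2 difference 2.21.

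Further genes that differed widely, also chosen after their values were seen, include Setdb1, a histone methyltransferase (24.3 against 107 FPKM, log2 difference -2.10), Nras, a RAS protein (31.8 against 86.0 FPKM, log2 difference -1.41), and Txnip, an inhibitor of thioredoxin (10.3 against 62.4 FPKM, log2 difference -2.47), all on chromosome 3 and higher in SMC#2. Jak1, a kinase of cytokine receptors on chromosome 4, averaged 9.401 against 0.0529 FPKM, log2 difference 3.30, and Mapt, the gene of the microtubule protein tau, 8.11 against 0.128 FPKM, log2 difference 3.01.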
